A study of Mus musculus with 12 samples.

Results

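A set of 9 genes grouped under the handling of extracellular ATP and adenosine was followed in CD4+ T cells sorted from mouse Peyer's patches. These patches are follicle clusters in the wall of the small intestine. The genes were Panx1, Slc17a9, P2rx7, P2rx4, Entpd1, Nt5e, Adora2a, Ada and P2ry10. They were chosen by their place in this pathway, with earlier results of these data known, and P2ry10 belongs to it by name only (below). Of these 9 members, out of 19937 genes with a probe set annotated to them alone, 8 were measured, each by the probe set with the highest mean level. Adora2a, an adenosine receptor gene, was not analysed here. A total of 7 members passed the filter on low values, which asked for a level above the array's median on at least 3 of the 12 arrays, and Entpd1 did not.

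The 12 Affymetrix mouse gene arrays held RNA from 4 sorted groups, with 3 arrays each. All mice carried a bacterial artificial chromosome transgene that places eGFP (GFP below) under the control of Il21, whose cytokine product marks T follicular helper (Tfh) cells, so GFP reports the transgene and not the native gene. The labels give no age. Cells without class II and Epcam on the surface were sorted as GFP+ Tfh (CXCR5+PD1+), GFP- Tfh (CXCR5+PD1+), GFP- CXCR5+PD1- and GFP- CXCR5-PD1- cells, the last 2 called the PD1- gates below. The groups follow the sample titles: the characteristics give the GFP+ arrays as CXCR5- and PD1-, name the cell type of every array as T follicular helper, and the sorting protocol does not list the CXCR5+PD1- gate. Values are RMA log2 expression, differences are log2 differences ± SE from limma over the 11240 genes that passed the filter, and levels of different genes are not compared because each rests on its own probes. No label ties a replicate to its own animal, and p-values then cover only the spread between these arrays, which may be technical.

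ATP leaves a cell through channels such as pannexin 1 or from vesicles loaded by the transporter that Slc17a9 encodes. Outside it opens the cation channels P2RX4 and P2RX7, and P2RX7 is known to limit the number of Tfh cells in Peyer's patches. CD39 (Entpd1) strips ATP to AMP, CD73 (Nt5e) turns AMP into adenosine, which acts on G protein-coupled receptors that raise cyclic AMP, and adenosine deaminase (Ada) turns adenosine into inosine. P2RY10 carries the name of a nucleotide receptor but responds to lysophosphatidylserine.

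The split between the Tfh and PD1- gates showed in the RNA of the sort markers. Il21, Cxcr5 and Pdcd1 stood at 9.57 to 10.82, 7.91 to 9.14 and 8.26 to 9.48 in the 6 Tfh arrays and at 5.39 to 7.63, 5.19 to 6.19 and 6.81 to 7.31 in the 6 arrays of the PD1- gates, with no overlap. The CXCR5 split of the PD1- gates was not seen in RNA. Cxcr5 averaged 5.61 in CXCR5+PD1- and 5.71 in CXCR5-PD1- cells, below the array median on each array, and did not pass (limma). Il21 averaged 10.60 in GFP+ and 9.96 in GFP- Tfh, and this difference did not pass either (limma). The 6 CD4 T cell markers measured lay above the array median on all 12 arrays. They were not level between the gates: 2 of the 6 rose in both Tfh gates over both PD1- gates (limma), against 5.05% of all genes tested. Their median difference was 0.21. Their summed level (log2 of the summed linear values) was 13.61 to 13.81 in Tfh and 13.40 to 13.59 in PD1- arrays. The 3 GFP+ arrays spread most around their group mean (root mean square 0.287 to 0.405, against 0.163 to 0.204 in the other 9). Replicate 3 of each group was female by Xist and Eif2s3y and the other replicates male, so the spread within each group includes a difference of sex.

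The main contrast of this set lay between both Tfh gates and both PD1- gates. Nt5e and P2rx7 rose in Tfh cells and Ada, Slc17a9 and P2ry10 fell, while P2rx4 and Panx1 did not pass. In bulk RNA, fewer cells of a type and less RNA per cell cannot be told apart. Of the 7 tested members 5 were thus past a limma adjusted p of 0.05, where 10.4% of all genes tested were (5.05% higher and 5.33% lower). The median difference was -0.46 over the 7 members and -0.02 over all genes tested. For 4 of the 7 members, Nt5e, P2rx7, Ada and Slc17a9, the 6 Tfh arrays did not overlap with the 6 PD1- arrays, against 7.56% of all genes. Ada and Slc17a9 passed the filter only through PD1- arrays, so these counts describe the members and support no claim about the set.

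**Figure D1:**
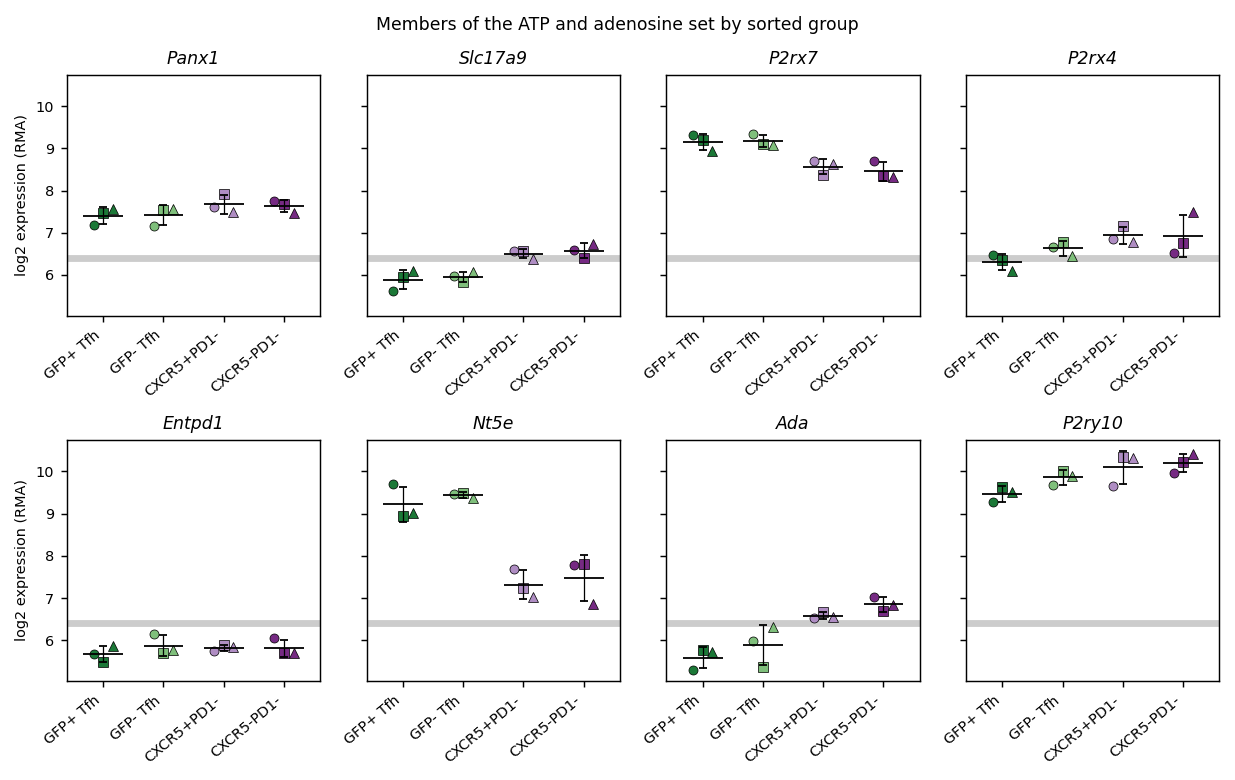
Log2 expression (RMA, y axis) of the 8 measured members on the 12 arrays, by sorted group (x axis). Circles, squares and triangles are replicates 1, 2 and 3, horizontal bars are means, error bars are SDs (n = 3) and the grey band is the range of the array medians. Nt5e and P2rx7 lie higher in both Tfh groups, Ada and Slc17a9 lie higher in both PD1- groups, and Entpd1 lies below the grey band on every array.

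Release of ATP was represented by Panx1 and Slc17a9. Slc17a9, the vesicular nucleotide transporter gene, stood at 5.63, 5.95 and 6.08 in GFP+ Tfh, at 5.96, 5.83 and 6.06 in GFP- Tfh, at 6.58, 6.56 and 6.38 in CXCR5+PD1- cells and at 6.59, 6.40 and 6.74 in CXCR5-PD1- cells. Every Tfh array lay below every PD1- array. It fell by 0.62 on the log2 scale (SE 0.10; adjusted p = 0.00190 in limma), a 1.54-fold lower level, and with no filter on low values the adjusted p was 0.00204. All 6 Tfh values lay below the array median. Panx1, the pannexin channel gene, stood at 7.17, 7.47 and 7.57 in GFP+ Tfh, at 7.16, 7.55 and 7.56 in GFP- Tfh, at 7.62, 7.92 and 7.48 in CXCR5+PD1- cells and at 7.76, 7.68 and 7.47 in CXCR5-PD1- cells. The Tfh and PD1- arrays overlapped, and the difference of -0.24 ± 0.12 did not pass (limma adjusted p = 0.262; 95% interval -0.50 to 0.01).

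The ATP-gated channels P2rx7 and P2rx4 lie near each other on chromosome 5. P2rx7 stood at 9.33, 9.20 and 8.94 in GFP+ Tfh, at 9.34, 9.11 and 9.07 in GFP- Tfh, at 8.69, 8.37 and 8.64 in CXCR5+PD1- cells and at 8.71, 8.34 and 8.31 in CXCR5-PD1- cells. The lowest Tfh array lay above the highest PD1- array. The gene rose by 0.66 ± 0.11, or 1.58-fold (limma adjusted p = 0.00217). P2rx4 stood at 6.47, 6.35 and 6.09 in GFP+ Tfh, at 6.66, 6.79 and 6.44 in GFP- Tfh, at 6.85, 7.17 and 6.79 in CXCR5+PD1- cells and at 6.53, 6.75 and 7.49 in CXCR5-PD1- cells. Its GFP+ Tfh arrays were lower than all PD1- arrays, but GFP- Tfh overlapped with CXCR5-PD1- cells. The difference of -0.46 ± 0.16 did not pass (limma adjusted p = 0.0963), and it passed only without CXCR5-PD1- replicate 1 (adjusted p = 0.0444; 0.0444 to 0.257 over its alternatives). The difference between the responses of P2rx7 and P2rx4 was not tested.

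Breakdown of nucleotides was represented by Entpd1 and Nt5e. Nt5e, which encodes CD73, stood at 9.69, 8.95 and 9.02 in GFP+ Tfh, at 9.46, 9.49 and 9.37 in GFP- Tfh, at 7.69, 7.23 and 7.03 in CXCR5+PD1- cells and at 7.77, 7.80 and 6.85 in CXCR5-PD1- cells. The lowest Tfh array stood more than 1 log2 unit above the highest PD1- array. Nt5e rose by 1.93 ± 0.19, or 3.82-fold (limma adjusted p = 5.58e-05; 95% interval 1.51 to 2.36), and this was the highest difference among the 7 tested members. Entpd1, which encodes CD39, stood at 5.67, 5.48 and 5.86 in GFP+ Tfh, at 6.15, 5.69 and 5.77 in GFP- Tfh, at 5.74, 5.88 and 5.85 in CXCR5+PD1- cells and at 6.05, 5.69 and 5.71 in CXCR5-PD1- cells. All 12 values lay below the array medians. With no filter the difference was -0.05 ± 0.10 (limma adjusted p = 0.930). A second probe set, annotated to the Entpd1 alias E130009M23Rik, lay lower still, at 5.33 to 5.79.

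Ada, the deaminase that removes adenosine, stood at 5.30, 5.76 and 5.71 in GFP+ Tfh, at 5.98, 5.36 and 6.31 in GFP- Tfh, at 6.53, 6.67 and 6.56 in CXCR5+PD1- cells and at 7.03, 6.69 and 6.82 in CXCR5-PD1- cells. All Tfh arrays lay below all PD1- arrays and below the array median, and all PD1- arrays lay above it. Ada fell by 0.98 on the log2 scale (SE 0.15; limma adjusted p = 0.00133, and 0.00183 with no filter), a 1.97-fold lower level. Nt5e, which makes adenosine, and Ada, which removes it, thus moved in opposite directions between the same arrays.

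P2ry10, the lysophosphatidylserine receptor gene, stood at 9.27, 9.63 and 9.51 in GFP+ Tfh, at 9.67, 10.01 and 9.90 in GFP- Tfh, at 9.65, 10.34 and 10.31 in CXCR5+PD1- cells and at 9.97, 10.22 and 10.41 in CXCR5-PD1- cells. The Tfh and PD1- arrays overlapped: GFP- Tfh replicate 2 stood above replicate 1 of both PD1- gates. P2ry10 fell by 0.49 on the log2 scale (SE 0.14; limma adjusted p = 0.0468), and the call was lost in 13 of 21 alternatives. Among these were the leaving out of GFP+ Tfh replicate 1, GFP- Tfh replicates 1, 2 or 3, CXCR5+PD1- replicates 2 or 3 and CXCR5-PD1- replicates 2 or 3 (adjusted p = 0.0627 to 0.119), and over all alternatives the adjusted p was 0.00679 to 0.251. Nt5e, P2rx7, Ada and Slc17a9 kept their direction and their call in each alternative in which they were tested.

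**Figure D2:**
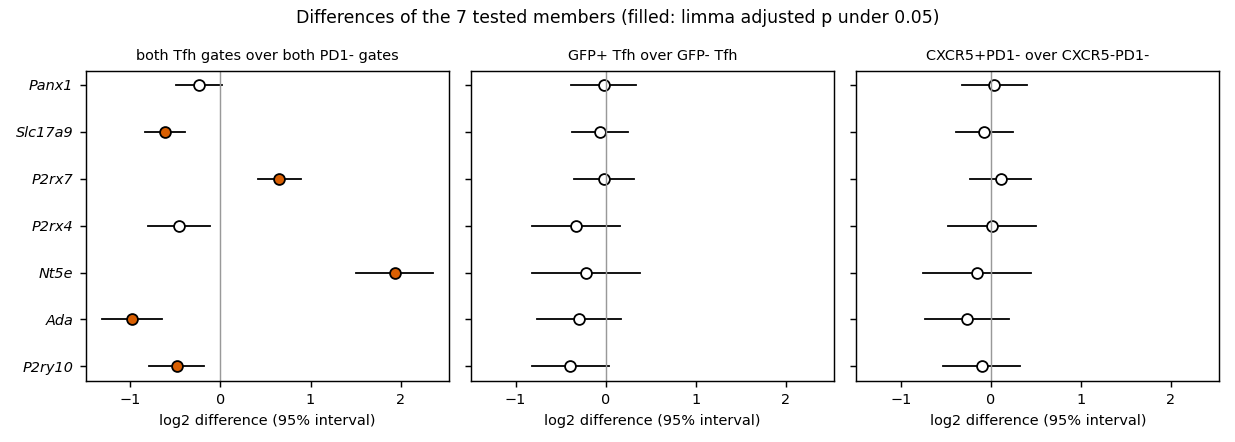
Log2 differences (x axis) of the 7 tested members (y axis) in 3 comparisons, with 95% intervals from limma; filled points passed an adjusted p of 0.05. Nt5e, P2rx7, Ada, Slc17a9 and P2ry10 are filled in both Tfh gates over both PD1- gates, and no point is filled in GFP+ over GFP- Tfh or in CXCR5+PD1- over CXCR5-PD1-.

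The promoters of Nt5e, P2rx7 and Ada are shown because these members kept their call and lie in the sequence table used here, which holds 7 of the 9 members (RefSeq, GRCm38.p6). The 250 bases before the annotated start are given in the direction of transcription, with matches on either strand to 9 searched motifs in capitals; P2rx7 has 2 annotated starts and the upstream one is shown. The windows lie at chr9:88327359-88327608 (plus strand) for Nt5e, chr5:122643677-122643926 (plus strand) for P2rx7 and chr2:163750240-163750489 (minus strand) for Ada.
Nt5e: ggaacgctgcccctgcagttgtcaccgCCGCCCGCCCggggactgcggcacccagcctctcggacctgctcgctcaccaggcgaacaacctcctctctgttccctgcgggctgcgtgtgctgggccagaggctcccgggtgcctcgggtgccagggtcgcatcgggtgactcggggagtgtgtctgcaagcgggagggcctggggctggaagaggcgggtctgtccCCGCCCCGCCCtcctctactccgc
P2rx7: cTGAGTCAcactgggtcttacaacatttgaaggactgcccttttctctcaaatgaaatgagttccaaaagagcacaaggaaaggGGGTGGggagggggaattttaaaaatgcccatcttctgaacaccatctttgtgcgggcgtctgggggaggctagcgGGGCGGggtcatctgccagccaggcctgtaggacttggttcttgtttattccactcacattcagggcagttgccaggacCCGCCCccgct
Ada: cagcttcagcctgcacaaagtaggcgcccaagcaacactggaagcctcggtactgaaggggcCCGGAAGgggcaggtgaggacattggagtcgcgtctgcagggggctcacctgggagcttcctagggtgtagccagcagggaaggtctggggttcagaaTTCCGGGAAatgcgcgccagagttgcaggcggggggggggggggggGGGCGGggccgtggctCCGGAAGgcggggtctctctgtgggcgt
The letters searched on both strands were TATAAA for the TATA box, GGGCGG for the factor SP1, CCGGAAG for the ETS family, TGACGTCA for the cyclic AMP response element, TGANTCA for the factor AP-1, TGGAAA for the NFAT family, TTCNNNGAA for the STAT family and BCL6, CCACCC for the KLF family and TGTGGT for the RUNX family. The Nt5e window held 4 matches, all of the SP1 letters and lying as 2 overlapping pairs, and 21 CpG against a median of 6 over 32817 windows. The P2rx7 window held 2 SP1 matches, 1 AP-1 match and 1 KLF match, and the window before its other start held 0 of the 9 motifs. The Ada window held 2 ETS matches, 1 SP1 match and 1 STAT and BCL6 match. Of all windows 32.7% held the SP1 letters, 6.905% ETS, 6.75% AP-1, 28.1% KLF and 7.01% STAT and BCL6. A match is a description of the letters and not a binding site.

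In GFP+ over GFP- Tfh, the comparison the series states as its aim, 0 of the 7 tested members passed (limma), and 0 had an unadjusted p under 0.05; of all genes 0.0445% passed. All 7 differences were below 0, with a median of -0.22 against -0.02 over all genes, of which 5208 of 11240 lay above 0. Those of P2rx7, Panx1 and Slc17a9 were small (-0.02, -0.02 and -0.06). They changed sign in 4 of 16, 5 of 16 and 1 of 15 alternatives. Of the 14 tested regulatory T cell marker genes, 1, Il2ra, fell in this comparison (8.55 ± 0.17 in GFP- and 5.83 ± 0.70 in GFP+ Tfh, SD, n = 3) and 7 had an unadjusted p under 0.05, with a median difference of -0.46 over the list; its part in the members' differences was not tested. P2ry10 had the smallest unadjusted p (0.0711), at -0.39 ± 0.20, and its GFP+ arrays all lay below its GFP- arrays, as the only 1 of the 7 members to show no overlap, against 8.74% of genes. The intervals leave room for moderate differences: for Nt5e the difference was -0.22 ± 0.27 (95% interval -0.82 to 0.38), for Ada -0.29 ± 0.21 (-0.76 to 0.18), for P2rx4 -0.33 ± 0.22 (-0.82 to 0.16) and for P2rx7 -0.02 ± 0.15 (-0.36 to 0.32). The SD of Nt5e was 0.41 in GFP+ and 0.07 in GFP- Tfh, since GFP+ replicate 1 stood higher than the other GFP+ arrays.

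In CXCR5+PD1- over CXCR5-PD1-, 0 of the 7 members passed (limma), 0 had an unadjusted p under 0.05 and 0% of all genes passed, with 137 genes at an unadjusted p under 0.05. The differences ran from -0.26 ± 0.21 for Ada to 0.11 ± 0.15 for P2rx7. Ada was lower in all CXCR5+PD1- arrays than in any CXCR5-PD1- array, 1 of 7 members without overlap against 8.74% of genes. The median difference was -0.07 over the members and 0.01 over all genes.

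The order of the group means was then read with each single pair of gates. Nt5e stood highest in GFP- Tfh (9.44 ± 0.07, SD, n = 3) and GFP+ Tfh (9.22 ± 0.41), then in CXCR5-PD1- (7.48 ± 0.54) and CXCR5+PD1- cells (7.32 ± 0.34), and each Tfh gate differed from each PD1- gate (limma adjusted p = 0.00115 to 0.00271), also in each alternative. Of all genes 5.89%, 6.20%, 3.75% and 3.82% passed in GFP+ Tfh over CXCR5+PD1-, GFP+ Tfh over CXCR5-PD1-, GFP- Tfh over CXCR5+PD1- and GFP- Tfh over CXCR5-PD1-. In these 4 pairs 4, 4, 1 and 4 of the 7 members passed. These comparisons share arrays, so their counts are not separate evidence.

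P2rx7, Ada and Slc17a9 passed in 3 of the 4 pairs and not in GFP- Tfh over CXCR5+PD1-. P2rx7 stood at 9.17 ± 0.14 in GFP- and 9.16 ± 0.19 in GFP+ Tfh, 8.57 ± 0.17 in CXCR5+PD1- and 8.45 ± 0.22 in CXCR5-PD1- cells, and the limma adjusted p was 0.0455, 0.0194, 0.0529 and 0.0228 in the order of pairs above. Ada stood at 6.85 ± 0.17 in CXCR5-PD1-, 6.59 ± 0.08 in CXCR5+PD1-, 5.88 ± 0.48 in GFP- Tfh and 5.59 ± 0.25 in GFP+ Tfh (limma adjusted p = 0.0189, 0.00484, 0.120 and 0.0286). Slc17a9 stood at 6.58 ± 0.17, 6.51 ± 0.11, 5.95 ± 0.12 and 5.89 ± 0.23 in the same groups (limma adjusted p = 0.0266, 0.0148, 0.0584 and 0.0328). P2ry10 stood at 10.20 ± 0.22 in CXCR5-PD1-, 10.10 ± 0.39 in CXCR5+PD1-, 9.86 ± 0.17 in GFP- Tfh and 9.47 ± 0.18 in GFP+ Tfh, and passed in no pair (lowest limma adjusted p = 0.05001, in GFP+ Tfh over CXCR5-PD1-). It passed in 4 of 16 alternatives in that pair (lowest 0.00786) and in 2 of 16 in GFP+ Tfh over CXCR5+PD1- (0.0175 and, without CXCR5+PD1- replicate 1, 0.0208). P2rx4 and Panx1 also passed in no pair.

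Most of these calls in 1 pair changed with the setting or with a single library. P2rx7, Ada and Slc17a9 lost theirs in 10 of 16, 5 of 15 and 5 of 15 alternatives in GFP+ Tfh over CXCR5+PD1-, in 6 of 16, 0 of 15 and 4 of 15 in GFP+ Tfh over CXCR5-PD1-, and in 5 of 16, 6 of 15 and 6 of 15 in GFP- Tfh over CXCR5-PD1-. In GFP- Tfh over CXCR5+PD1- they passed in 6 of 16, 3 of 15 and 5 of 15 alternatives, all 3 of them with 1 weight per group (limma adjusted p = 0.0143, 0.0369 and 0.0109) and with 1 weight per array (0.00703, 0.0194 and 0.00482). With 1 weight per group all 3 lost their call in GFP+ Tfh over CXCR5+PD1- (0.166, 0.0834 and 0.0868). In GFP+ Tfh over CXCR5+PD1-, leaving out any 1 of the CXCR5+PD1- replicates ended the calls of P2rx7, Ada and Slc17a9 (limma adjusted p = 0.0529 to 0.182), and leaving out GFP+ Tfh replicate 1 or 2 ended that of P2rx7 (0.0883 and 0.103). In GFP+ Tfh over CXCR5-PD1-, P2rx7 lost its call without GFP+ Tfh replicate 2 or CXCR5-PD1- replicate 2 or 3 (0.0537, 0.0786 and 0.0896) and Slc17a9 without CXCR5-PD1- replicate 3 (0.0749), while Ada kept it. In GFP- Tfh over CXCR5-PD1-, P2rx7 lost it without GFP- Tfh replicate 1 or 2 or CXCR5-PD1- replicate 2 or 3 (0.0660 to 0.106), Slc17a9 without GFP- Tfh replicate 1, 2 or 3 or CXCR5-PD1- replicate 1 or 3 (0.0563 to 0.149) and Ada without GFP- Tfh replicate 1 or 2 or CXCR5-PD1- replicate 1, 2 or 3 (0.0593 to 0.109). In GFP- Tfh over CXCR5+PD1-, Ada passed without GFP- Tfh replicate 3 (0.0429).

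The other genes of the pathway were taken from 8 lists with 67 genes, of which 56 were measured and 33 tested. In both Tfh gates over both PD1- gates 6 of the 33 rose and 6 fell, with a median difference of -0.05, against 10.4% of all genes past the threshold and a median of -0.02. P2ry14 and P2ry10b passed the filter only through PD1- arrays and Calhm2 only through Tfh arrays. Adcy6 lay above the array median on every PD1- array but on only 1 Tfh array. These counts therefore describe the listed genes and support no claim about the pathway. No gene of these lists passed in GFP+ over GFP- Tfh or in CXCR5+PD1- over CXCR5-PD1-.

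Among 8 genes of other release routes 5 were tested, of which 2 rose and 2 fell. These 4 were Calhm2, of a family of ATP-permeable channels, and the volume-regulated anion channel subunits Lrrc8a, Lrrc8c and Lrrc8d. Lrrc8a, the subunit every such channel needs, stood at 7.73, 7.93 and 7.37 in GFP+ Tfh, at 7.85, 7.69 and 7.83 in GFP- Tfh, at 8.32, 8.57 and 8.47 in CXCR5+PD1- cells and at 8.19, 8.45 and 8.89 in CXCR5-PD1- cells. It fell by 0.75 (SE 0.13; limma adjusted p = 0.00300), and Lrrc8c fell by 0.77 (SE 0.15; limma adjusted p = 0.00653). Lrrc8d moved the other way, from 7.15 to 7.64 in the PD1- arrays to 7.72 to 8.49 in the Tfh arrays, and rose by 0.57 ± 0.13 (limma adjusted p = 0.0125). All 3 subunits, named here because they passed the threshold, showed no overlap between the Tfh and PD1- arrays, against 7.56% of all genes tested. The 3 kept their calls in all 21 alternatives. Calhm2 rose by 0.48 ± 0.07 (limma adjusted p = 0.00132), from 6.27 to 6.36 in the PD1- arrays to 6.69 to 6.94 in the Tfh arrays.

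Of 11 further nucleotidase genes 9 were measured and 5 tested, and 0 passed (limma; 0 at an unadjusted p under 0.05), with Entpd5 at -0.19 ± 0.23 and Entpd4 at -0.11 ± 0.09. Of the 12 other nucleotide receptors, all measured, only P2ry14, the UDP-glucose receptor gene, was tested, and 8 lay below the array median on all 12 arrays. P2ry14 fell by 0.58 (SE 0.14; limma adjusted p = 0.0203), and lost its call without GFP- Tfh replicate 1 or CXCR5+PD1- replicate 2 or 3 (adjusted p = 0.0509 to 0.0580). The other adenosine receptors, Art2b and Cd38 were not analysed here, and Bst1 lay below the median on all arrays.

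Of 9 genes listed under adenosine clearance 7 were measured and tested, of which 2 rose and 1 fell. Dpp4, which encodes the surface protein CD26, stood at 9.98, 9.94 and 9.48 in GFP+ Tfh, at 9.93, 10.005 and 9.69 in GFP- Tfh, at 9.26, 8.90 and 8.76 in CXCR5+PD1- cells and at 9.21, 8.96 and 8.95 in CXCR5-PD1- cells. It rose by 0.83 ± 0.12 (limma adjusted p = 0.00102), with every Tfh array above every PD1- array. Slc29a1, the equilibrative nucleoside transporter gene, rose by 0.47 ± 0.10 (limma adjusted p = 0.0120). Adk, which phosphorylates adenosine inside the cell, fell by 0.39 (SE 0.11; limma adjusted p = 0.0494) and lost its call in 15 of 21 alternatives (adjusted p = 0.0180 to 0.246 over all), among them without any 1 library other than GFP+ Tfh replicate 1, GFP- Tfh replicate 2 and CXCR5+PD1- replicate 1 (0.0639 to 0.115).

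P2ry10b, the gene beside P2ry10 on the X chromosome, stood at 4.21, 4.97 and 4.07 in GFP+ Tfh, at 4.74, 5.31 and 4.89 in GFP- Tfh, at 6.34, 6.29 and 6.58 in CXCR5+PD1- cells and at 6.76, 6.52 and 7.13 in CXCR5-PD1- cells. The highest Tfh array lay below the lowest PD1- array. P2ry10b fell by 1.90 (SE 0.17; limma adjusted p = 2.66e-05), a lower level in Tfh cells that kept its call in all 20 alternatives. P2ry10 and P2ry10b are related genes, and cross-hybridisation between their probe sets was not tested. Gpr174, another lysophosphatidylserine receptor gene, differed by 0.49 ± 0.24 and did not pass (limma adjusted p = 0.272), except without GFP+ Tfh replicate 3 (adjusted p = 0.0261), the array with its lowest level (7.41). Gpr34 lay below the array median on all arrays.

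**Figure D3:**
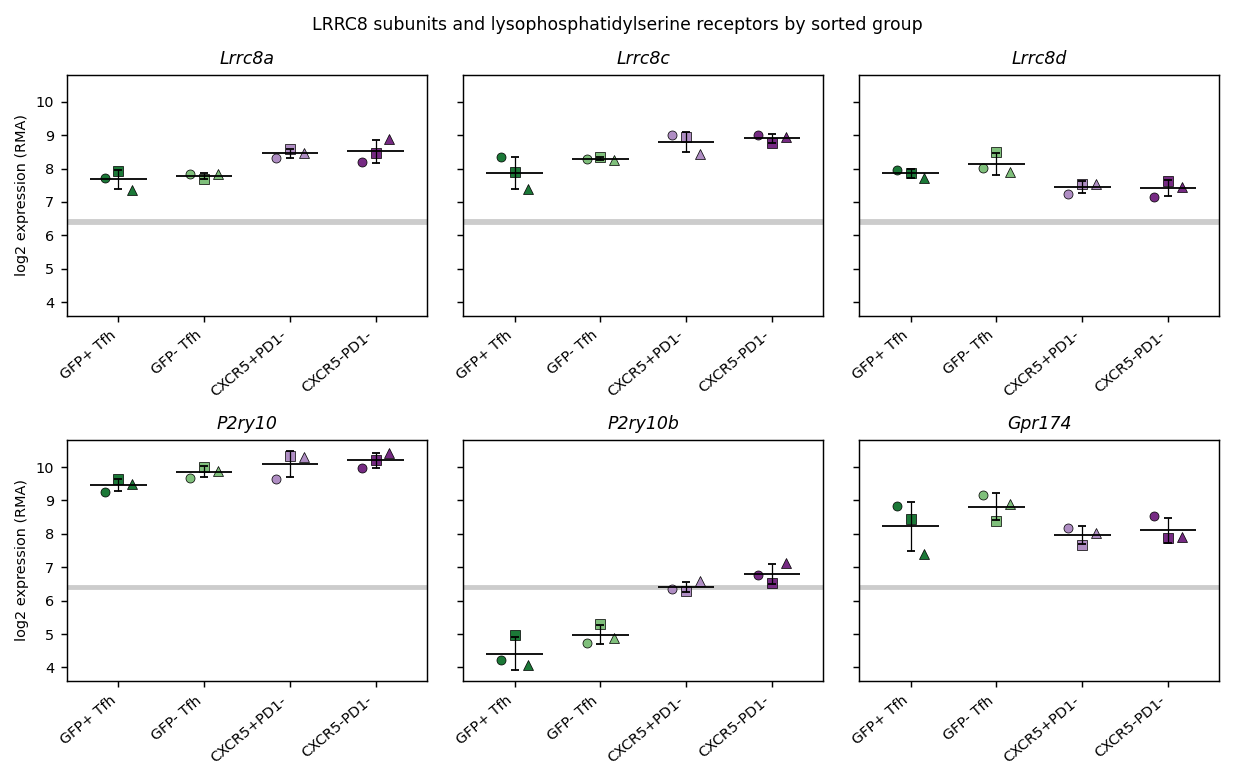
Log2 expression (RMA, y axis) of 3 LRRC8 channel subunits and 3 lysophosphatidylserine receptor genes on the 12 arrays by sorted group (x axis), with symbols, bars (mean and SD, n = 3) and grey band as for the members. Lrrc8a and Lrrc8c lie lower and Lrrc8d higher in Tfh cells, and P2ry10b lies at 4.07 to 5.31 in Tfh arrays and at 6.29 to 7.13 in PD1- arrays.

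Of 18 genes of cyclic AMP signalling, the route by which adenosine receptors act, 16 were measured and 13 tested. Pde2a, a phosphodiesterase that degrades cyclic nucleotides, rose by 0.93 ± 0.12 (limma adjusted p = 0.000329). Prkar1a, a regulatory subunit of protein kinase A, rose by 0.48 ± 0.11 (limma adjusted p = 0.0181). Adcy6, an adenylyl cyclase gene, fell by 0.57 (SE 0.10; limma adjusted p = 0.00392). The other 10 did not pass, among them the phosphodiesterase genes Pde3b at 0.46 ± 0.16 (limma adjusted p = 0.0929) and Pde4d at -0.35 ± 0.13 (0.117). Pde3b passed in 2 of 21 alternatives, with 1 weight per array (0.0225) and with replicate numbers 1 and 2 only (0.0493).

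**Figure D4:**
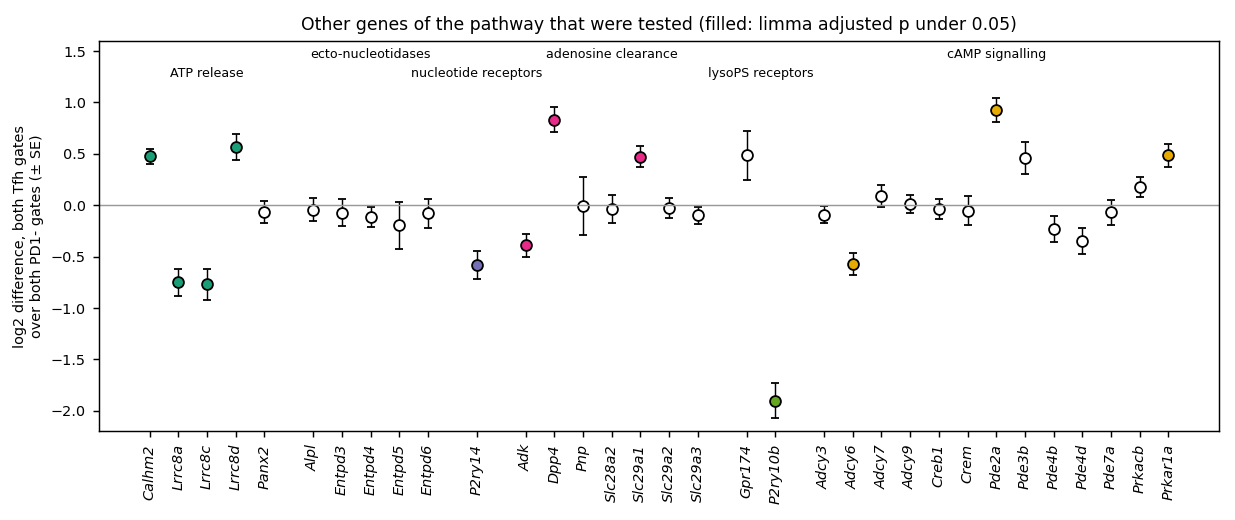
Log2 differences, both Tfh gates over both PD1- gates (y axis, ± SE from limma), of the 33 tested genes of the wider lists (x axis), grouped by list; filled points passed an adjusted p of 0.05. P2ry10b has the lowest value at -1.90 and Pde2a the highest at 0.93.

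Genes whose pattern over the 12 arrays was most like the members with the highest and the lowest difference were found by Pearson correlation, as a description. For Nt5e these were Ttc39c (r = 0.982), Dst (0.981), Phactr2 (0.980), Plcb4 (0.980) and Igf1r (0.974). For Ada they were Ablim1 (r = 0.950), Slc17a9 (0.931), Pag1 (0.928), Als2cl (0.925) and Treml2 (0.922). The 12 arrays fall into Tfh and PD1- arrays, so a correlation pooled over them includes that split.

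Markers of other cells and states moved between the same gates. All 8 measured genes of naive T cells (of 10) fell in Tfh, and their summed level (log2 of the summed linear values) was 11.81 to 12.55 in Tfh and 13.48 to 13.89 in PD1- arrays. Of 15 regulatory T cell genes, 14 tested, 4 rose and 2 fell, with Ikzf2 at 1.87 ± 0.17, Il2ra at -1.74 ± 0.20 and Foxp3, which defines these cells, at -0.47 ± 0.13, and the summed level was 13.22 to 13.51 against 12.15 to 12.65. The highest genes weigh most in this sum. Ctla4 averaged 12.09 in Tfh and 11.04 in PD1- arrays, and Ikzf2 11.05 and 9.18, so the sum does not measure a share of regulatory T cells. Il2ra was the only tested regulatory T cell gene to pass between the Tfh gates (limma). It averaged 5.83 in GFP+ and 8.55 in GFP- Tfh, next to 8.77 and 9.09 in the CXCR5+ and CXCR5- gates without PD1. Foxp3 averaged 7.03, 7.66, 7.68 and 7.95 in the same order, and did not pass between the Tfh gates. The part of these regulatory T cell genes in the changes of Nt5e, P2rx7, Ada, Slc17a9 and P2ry10 was not tested. For B cells, 9 of 10 genes were measured, the summed level was 8.72 to 8.99 in Tfh and 8.63 to 8.86 in PD1- arrays, 5 of the 9, Ms4a1 and Ebf1 among them, lay below the median on all arrays, and Pax5, which passed the filter only through the 3 GFP+ Tfh arrays, was higher by 0.30 ± 0.07 (limma adjusted p = 0.0193). All 9 tested Tfh genes (of 10) rose. Cd8b1 was the only 1 of 5 tested genes of the CD8+, natural killer and gamma-delta lists to pass, and fell. In limma 0 of 4 tested germinal centre B and plasma cell genes passed in this pooled contrast (2 at an unadjusted p under 0.05), 0 of 5 myeloid genes (1), 0 of 3 epithelial genes (1) and 0 of 6 stromal genes (1). In GFP+ Tfh over CXCR5+PD1- alone, 1 of 5 myeloid genes rose and 1 of 3 epithelial genes fell (limma), against 5.89% of all genes. Summed levels overlapped for germinal centre B and plasma cells (9.77 to 10.64 and 9.81 to 10.10), myeloid cells (9.68 to 9.99 and 9.58 to 10.25), epithelium (9.14 to 9.47 and 9.35 to 9.48), stroma (10.33 to 10.61 and 10.57 to 10.73) and the CD8+, natural killer and gamma-delta lists (8.80 to 9.37 and 9.20 to 10.07). Below the median on all arrays lay 6 of 12 measured myeloid genes, 7 of 10 epithelial genes and 4 of 10 stromal genes. The same held for 4 of 9 germinal centre B and plasma cell genes and 3 of 8 CD8+, natural killer and gamma-delta genes. Epcam, Csf1r, Itgam, Itgax, Pdgfra and Ncr1 were among these genes. Other genes of the lists, such as Cd68, Krt8, Col1a1 and Xbp1, lay above the median on all 12 arrays.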

How the data were processed

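RNA from 12 sorted samples was hybridised to Affymetrix mouse gene arrays. The authors deposited log2 expression values of 34760 probe sets; the submitters' processing notes name RMA and oligo, and give no versions or build. RMA brings the arrays to 1 distribution, so it hides a change common to most genes. Precision is limited by the 3 arrays a group. No pair of arrays held identical values.

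Probe sets with 1 gene symbol (21640; 1321 had several and 11799 were unnamed here) took their names from GEO's annotation of the platform (21553 brought up to date by gene ID in RefSeq, GRCm38.p6), and the one with the highest mean was kept per gene. Genes above the array median on at least 3 arrays (11240 of 19937) were fitted in limma 3.58.1 (R 4.3.3; lmFit, eBayes), with 1 model of 4 group means, 8 residual and 11.5 total degrees of freedom, and Benjamini-Hochberg adjustment at 0.05. The code was tested on simulated data.

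Members and lists were chosen with earlier results of these data known. Named are all members, the listed pathway genes past the threshold and up to 2 a list with the next smallest p, up to 4 genes a marker list, and the 5 genes most like the highest and lowest member. Gpr34, Bst1, Art2b and Cd38 were named beyond it, to account for lists with few tested genes.

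Alternatives changed the filter, moderation, weights, normalisation, block, probe set rule and groups in the fit, and left out replicates; those for single pairs of gates and for the wider lists were added after seeing the data. Deviations of arrays with the same replicate number correlated at -0.02 to 0.35, above 0.1 in 8 of 18 pairs. These values do not settle whether the numbers pair the 4 groups, and the main fit did not pair them. Each replicate number had the same sex in all 4 groups, so whether the groups came from the same animals cannot be told. Between the PD1- gates all 3 correlations passed 0.1 (0.21 to 0.35), and the block there called 0 members and 0 genes, as the fit without it did.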

Additional observations from a re-analysis of the deposited data

How the results depend on the processing

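In both Tfh gates over both PD1- gates, 5 members were called and 4 to 6 on leaving out 1 library; the count was 3 with a filter at the 70th percentile, under which Ada, Slc17a9 and P2rx4 were not tested. The count of all genes called was 1167, 883 to 1495 on leaving out 1 library, and 1981 with 1 weight per array. In GFP+ over GFP- Tfh no member was called in any alternative run; the count of all genes was 5, 3 with 1 weight per group, 95 with 1 weight per array, 0 with replicate numbers 1 and 2 only and 0 with the 2 groups alone, and 3 to 237 on leaving out 1 library (237 without GFP+ Tfh replicate 1, 3 without GFP- Tfh replicate 1). In CXCR5+PD1- over CXCR5-PD1- no member and no gene was called in any alternative run.

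With the replicate number as a block the main contrast called 5 members and 1247 genes, GFP+ over GFP- Tfh 0 members and 6 genes. It ended the call of Adk (limma adjusted p = 0.0573), and in single pairs it added P2ry10 in GFP+ Tfh over CXCR5+PD1- (0.0175) and over CXCR5-PD1- (0.00786) and P2rx7 in GFP- Tfh over CXCR5+PD1- (0.0213). It changed no other call of a member or of the pathway genes for which it was run. The block was not run for the marker genes, Entpd5 and Pde4d.

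Some uncalled differences changed sign. In GFP+ over GFP- Tfh, Panx1 was 0.0904 with 1 weight per array and 0.0014 with cyclic loess, P2rx7 was 0.0479 with cyclic loess and 0.0376 with replicate numbers 1 and 2 only. In CXCR5+PD1- over CXCR5-PD1-, P2rx4 was -0.0327 with cyclic loess and Slc17a9 0.0748 with replicate numbers 1 and 2 only. On leaving out 1 library the ranges in GFP+ over GFP- Tfh were -0.154 to 0.0927 for Panx1, -0.103 to 0.0875 for P2rx7 and -0.161 to 0.0644 for Slc17a9. In CXCR5+PD1- over CXCR5-PD1- they were -0.468 to 0.00517 for Nt5e, -0.187 to 0.296 for P2rx4, -0.221 to 0.124 for P2ry10, -0.0831 to 0.134 for Panx1 and -0.159 to 0.0121 for Slc17a9. In both Tfh gates over both PD1- gates Panx2 ranged from -0.108 to 0.0238. In GFP- Tfh over CXCR5-PD1-, P2rx4 was 0.0834 with replicate numbers 1 and 2 only. The cause of these changes was not tested. Signal at or below the array median limits Ada, Slc17a9, P2rx4, P2ry10b and Entpd1.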
